A study of Mus musculus with 15 samples.

Results

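Defb19, Defb33, Defb36 and Defb45 are 4 of the 42 beta-defensin genes, and of the 32285 genes, counted in these libraries of mouse testis. They were found by gene symbol. The list itself had been drawn up from earlier results of the same libraries, namely the level of each gene in Sertoli cells against that in late haploid cells and its detection together with sperm transcripts. Both of these measures are therefore described below without a test, and only the comparisons between groups of mice are tested. Each library came from the testis of 1 adult DBA/2J male, with 3 libraries in each of 5 groups. JQ1, an inhibitor of the bromodomains of BRDT and related BET proteins, was injected intraperitoneally once a day for 3 wk at 50 mg/kg, and the T mice were killed at the end of dosing, 10 wk old. Other mice given JQ1 in the same way were taken 6 wk after the last dose at 16 wk of age (R). Vehicle-injected mice were taken at the same times and ages (VC-T at 10 wk and VC-R at 16 wk), and untreated mice at 15 wk (UC). Age and group cannot be told apart in T against UC. The comparisons that use UC share its 3 libraries.

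Beta-defensins are short secreted peptides, rich in positive charge, whose fold is held by disulfide bonds between conserved cysteines. They are known as antimicrobial peptides of epithelia. In the male tract, where many of the genes are active in the epididymis, several family members coat sperm and have roles in maturation and motility. Sertoli cells are the somatic nurse cells of the seminiferous tubule, in contact with every germ cell stage, while late spermatids pack their DNA with transition proteins (Tnp1, Tnp2) and protamines (Prm1, Prm2).

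Coding sequences of 3 members are given below because the family is defined by its cysteines: codons for cysteine in the reading frame (TGT or TGC) are in capitals. They were taken from GENCODE vM21 on GRCm38/mm10 and are written 5′ to 3′ in the sense of the gene.
Defb19: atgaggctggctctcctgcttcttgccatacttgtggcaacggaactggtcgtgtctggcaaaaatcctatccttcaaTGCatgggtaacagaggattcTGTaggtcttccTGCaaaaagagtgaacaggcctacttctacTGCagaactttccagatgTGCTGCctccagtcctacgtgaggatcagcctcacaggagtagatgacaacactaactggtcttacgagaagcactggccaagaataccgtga
Defb36: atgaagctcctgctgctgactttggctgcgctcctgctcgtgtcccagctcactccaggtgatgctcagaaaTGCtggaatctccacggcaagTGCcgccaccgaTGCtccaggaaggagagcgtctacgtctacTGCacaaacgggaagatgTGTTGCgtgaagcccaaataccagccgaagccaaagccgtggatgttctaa
Defb33: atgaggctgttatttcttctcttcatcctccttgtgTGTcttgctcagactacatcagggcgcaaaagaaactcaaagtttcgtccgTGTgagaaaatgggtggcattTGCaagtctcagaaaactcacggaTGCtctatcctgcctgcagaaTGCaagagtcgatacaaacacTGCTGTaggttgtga
Defb19 and Defb36 each held 6 cysteine codons, and in both the steps from each to the next were 7, 4, 10, 6 and 1 codons. Defb33 held 7, and the steps between its last 6 were 7, 8, 7, 7 and 1 codons. Identity over the global alignment, with gaps counted as unlike, was 45.4% between Defb19 and Defb36, 49.2% between Defb19 and Defb33 and 51.6% between Defb33 and Defb36. Coding lengths were 252 bases for Defb19, 204 for Defb36 and 189 for Defb33. Gaps from unequal lengths lower these values by different amounts, so the pairs are not ranked by them.

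Defb19, Defb45 and Defb36 were neighbours in the genome. On chromosome 2 (GRCm38/mm10), Defb19 lies at chr2:152576086-152580312 on the minus strand and Defb36 at chr2:152604327-152612729 on the plus strand, each with 2 exons, and Defb45 lies between them. The 3 genes stand in places 8, 9 and 10 of a run of 11 beta-defensin genes that spans 164 kb, and no other gene of the family lies between them. A processed pseudogene, Gm14163, lies within Defb36 on the same strand, so a UMI from one could be counted for the other. Defb33 lies alone on chromosome 8, at chr8:20892669-20897723 on the plus strand with 3 exons, 879 kb from the nearest other beta-defensin gene of that chromosome.

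Unique molecular identifiers (UMIs) totalled 9673587 to 98724982 per library, and 72362 cells were kept, 2430 to 12744 per library. Cells were grouped into classes by fixed marker genes, with every beta-defensin and the 4 sperm transcripts Prm1, Prm2, Tnp1 and Tnp2 left out of the clustering, and classes are called "like" because they rest on transcripts. The classes used here held 3769 Sertoli-like, 20200 spermatid-like, 23082 spermatozoa-like (late haploid) and 322 Leydig-like cells. Levels are in CPM, the UMIs of a gene scaled to 1000000 UMIs of the class in a library. These 3′ UMIs count transcript ends and do not scale with transcript length. A library entered a class with at least 10 cells. T held 6 spermatozoa-like cells in all, so it has no value there. VC-T 1 stood apart from the other vehicle libraries, with 0 spermatozoa-like and 7 Sertoli-like cells. The labels give no reason for this, and what sets the library apart was not tested. The study left it out of its differential expression tests, and the comparisons with VC-T below rest on VC-T 2 and VC-T 3. The level of VC-T 1 is given beside them for Defb33 in spermatid-like cells alone. Across the 105 pairs of libraries, at most 0.548% of the smaller library's cells had a barcode in common with the other.

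Defb19, Defb36 and Defb45 were transcripts of the Sertoli-like cells. Their mean levels there were 4928 CPM ± 1608 (SD, n = 13 libraries) for Defb19, 752 ± 225 for Defb36 and 282 ± 116 for Defb45. In spermatozoa-like cells the same genes were at 25.0 ± 12.6 (SD, n = 11), 5.29 ± 2.60 and 2.07 ± 1.21 CPM. The lowest Sertoli-like library stood above the highest spermatozoa-like library for each of the 3, with 3177 CPM against 44.4 for Defb19, 445 against 9.96 for Defb36 and 135 against 3.85 for Defb45. Defb33 had the reverse pattern, with 554 ± 63.0 CPM in spermatozoa-like cells and 111 ± 63.6 in Sertoli-like cells. Its spermatozoa-like libraries ranged from 474 to 710 CPM and its Sertoli-like libraries from 22.5 to 198, again without overlap.

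The order of the classes differed between Defb19 and its neighbours. For Defb19 the class after Sertoli-like cells was Leydig-like cells, at 1400 ± 478 CPM (SD, n = 10), followed by macrophage-like cells at 84.6 ± 50.5 (n = 7) and myoid-like cells at 63.4 ± 57.0 (n = 5), while the 4 germ cell classes lay between 19.7 and 29.5 with SDs of 9.24 to 24.5. The macrophage-like and myoid-like levels did not differ beyond their spread, nor did those of the germ cell classes. For Defb36 the second level was 18.4 ± 21.3 CPM in macrophage-like cells, not separate from the 15.0 ± 14.3 of Leydig-like cells. For Defb45 the levels outside Sertoli-like cells were 1.34 to 13.1 CPM and overlapped. For Defb33 the order after spermatozoa-like cells was Sertoli-like at 111, spermatid-like at 79.0 ± 50.2 (n = 15), macrophage-like at 79.0 ± 73.1 and Leydig-like at 58.0 ± 55.4, which did not differ beyond their spread, and spermatogonia-like and spermatocyte-like cells came last, at 19.5 ± 14.6 and 11.1 ± 9.72.

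**Figure D1:**
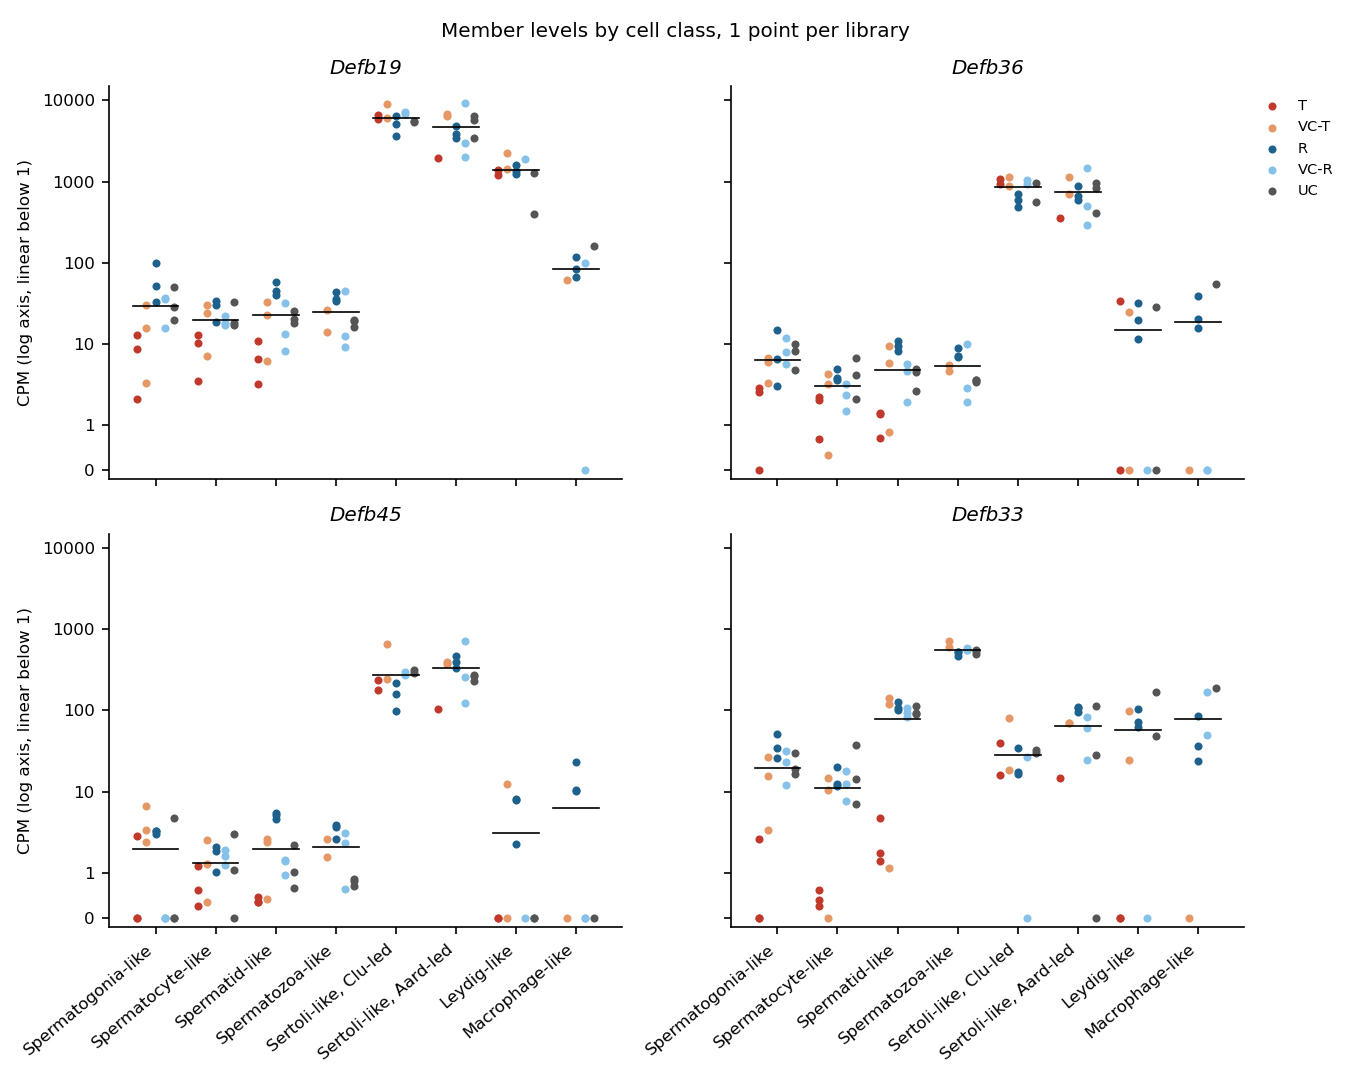
Level of each member in CPM (log axis, linear below 1) in 8 cell classes, with 1 point per library coloured by group and a line at the mean. Defb19, Defb36 and Defb45 are highest in both Sertoli-like clusters, Defb19 alone is also near 1400 CPM in Leydig-like cells, and Defb33 is highest in spermatozoa-like cells, where T has no point.

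Counted as molecules over all groups together, most of each gene lay in its leading class. R gave 2814 of the 3769 Sertoli-like and 9313 of the 23082 spermatozoa-like cells, and T gave 6 of the latter. Sertoli-like cells held 67.0% of the 57253 UMIs of Defb19, 65.9% of the 10062 of Defb36 and 68.6% of the 4009 of Defb45, from 3769 of the 72362 cells. Spermatozoa-like cells held 73.1% of the 78519 UMIs of Defb33, and spermatid-like cells 10.2%. A mixed cluster of 2272 cells, left unnamed and in part with markers of both classes, held 11.6% of Defb19, 14.0% of Defb36 and 12.0% of Defb33. In its sub-cluster of 439 cells too few Sertoli markers were detected for a score. In that of 319 cells they averaged below their level in all other cells.

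Along the chromosome 2 run, the change from silent to Sertoli-expressed was abrupt. Defb25, the neighbour on the far side of Defb36, had 8 UMIs in all cells. Defb21, which ends 1142 bp before Defb19 begins, had 1720 UMIs and was highest in spermatozoa-like cells, at 9.54 CPM against 2.07 in Sertoli-like cells. Of the other 8 genes of the run, 7 had under 150 UMIs each, Defb25 among them, and Defb21 was the remaining one. In the whole family, 35 of 42 genes had at least 1 UMI and 25 had 1 to 100. Besides the 4 members, 3 genes reached 5 CPM in any class: Defb14 at 72.3 CPM and Defb30 at 67.7 CPM in spermatid-like cells, and Defb21.

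**Figure D2:**
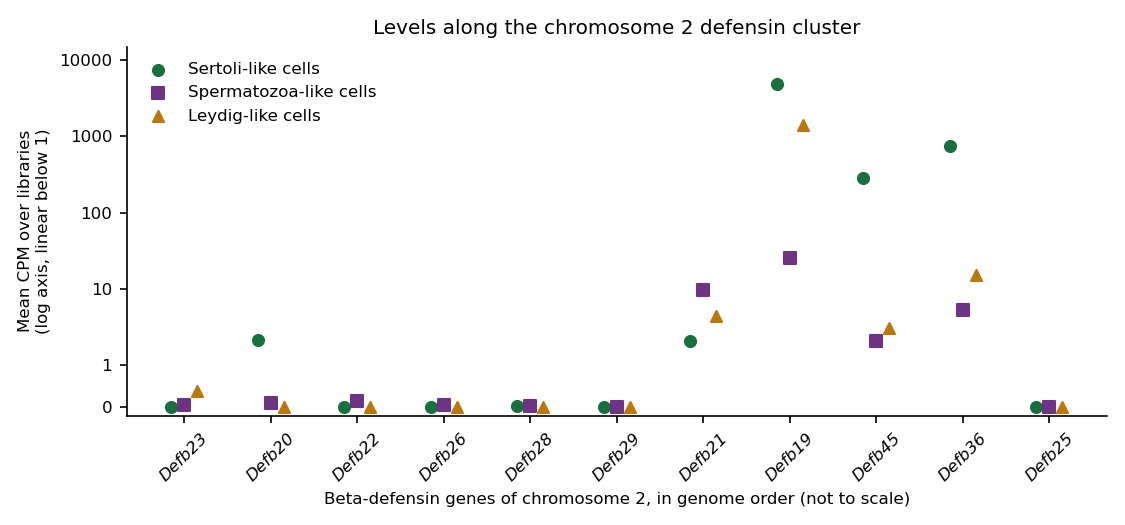
Mean CPM over libraries (log axis, linear below 1) of the 11 beta-defensin genes of chromosome 2 in genome order, in Sertoli-like, spermatozoa-like and Leydig-like cells. Defb19, Defb45 and Defb36 stand at 282 to 4928 CPM in Sertoli-like cells, whereas Defb21 beside them is at 2.07.

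Nearly every Sertoli-like cell carried Defb19. A UMI of Defb19 was found in 93.9% of Sertoli-like cells (exact 95% binomial interval 93.1 to 94.6%), of Defb36 in 62.6% (61.0 to 64.1%), of Defb45 in 38.1% (36.5 to 39.6%) and of Defb33 in 18.5% (17.2 to 19.7%), at a median of 1518.0 UMIs per cell. These intervals cover counting error only. In spermatogonia-like cells, at a median of 1815.5 UMIs, the shares were 5.95% for Defb19, 1.45% for Defb36, 0.562% for Defb45 and 3.42% for Defb33. With every cell thinned to 1000 UMIs, Defb19 was expected in 88.5% of Sertoli-like and 2.32% of spermatogonia-like cells. Spermatozoa-like cells had Defb33 in 67.6% (67.0 to 68.2%, median 3335.0 UMIs), or 35.0% after thinning, against 1.37% of spermatogonia-like cells after thinning. For Defb19, spermatozoa-like cells had 3.11% after thinning and spermatid-like cells 3.42%, near the 2.32% of spermatogonia-like cells, and no expression in haploid cells is read from them.

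The Sertoli-like class had 3 parts, and the defensins differed among them. A cluster of 347 cells led by Clu, which encodes the secreted chaperone clusterin, had the fewest sperm transcripts, a median of 0.495% of each cell's UMIs. A cluster of 3106 cells led by Aard had a median of 3.42%, and 316 Sertoli-like cells of the mixed cluster had 16.4%. Defb33 stood at 28.4 CPM ± 20.6 (SD, n = 11) in the Clu-led and 64.5 ± 39.4 (n = 12) in the Aard-led cells. Defb19 was at 6109 ± 1321 and 4751 ± 2211, Defb36 at 845 ± 223 and 734 ± 346, and Defb45 at 270 ± 146 and 328 ± 162. Between these 2 parts the means of Defb33 alone were more than 2 times apart, and even these ranges overlapped, 0 to 80.8 against 0 to 115 CPM. In the third part, taken over all its cells, Defb33 was at 456 CPM, Defb19 at 2533, Defb36 at 538 and Defb45 at 84.7. Over all cells of the Clu-led and Aard-led parts Defb45 was at 294 and 360 CPM and Defb19 at 6137 and 4074.

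Within Sertoli-like cells, Defb33 was higher where sperm transcripts were higher, and the levels of the other 3 in CPM were lower. The thinned shares of Defb19 and Defb36 were lowest in the middle range. CPM are shares of all UMIs, so more sperm transcripts by themselves lower the CPM of other genes. How much of the lower levels this makes up was not tested. Of cells with under 2% of their UMIs from Prm1, Prm2, Tnp1 and Tnp2, 6.34% of 773 had a UMI of Defb33, of cells with 2 to 10% the share was 15.5% of 2626, and of cells with over 10% it was 65.1% of 370. The level of Defb33 over these cells was 18.9, 103 and 436 CPM, and the shares thinned to 1000 UMIs were 2.61, 9.66 and 29.8%. Defb19 was in 96.5, 92.5 and 98.4% of the same cells, or 91.0, 87.6 and 90.0% after thinning, shares near their ceiling, while its level was 5610, 3848 and 3039 CPM. Defb36 was in 54.5, 44.4 and 47.1% after thinning, at 834, 709 and 609 CPM. Defb45 was the most unequal of these 3, with 33.5, 24.4 and 10.6% after thinning and 406, 320 and 102 CPM.

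Every group with enough cells showed the rise of Defb33 with sperm transcripts, in shares that are not thinned. Median UMIs per cell differed between the ranges, at 2556.0, 1373.0 and 4496.0 in R from the lowest to the highest. Of the 370 Sertoli-like cells in the highest range, 284 were of the mixed cluster, whose Sertoli-like cells in the lowest range numbered 0. In UC the share of Sertoli-like cells with Defb33 was 3.48, 15.2 and 45.5% from the lowest to the highest of the 3 ranges, in R 12.0, 15.4 and 72.5%, in VC-R 1.71, 25.6 and 42.9%, and in VC-T 5.65, 14.0 and 56.8%. T had 88 Sertoli-like cells in the lowest range, and 0 of them had a UMI of Defb33. With 3 counts taken as the limit of a count of 0, in place of an exact interval, this allows a share of up to 3.41%. The same T cells had Defb19 in 90.9% and Defb36 in 56.8%. Of all Sertoli-like cells with a UMI of Defb19, Defb36 or Defb45, 18.5% also had Defb33, ranging by group from 6.00% in T to 20.3% in R, with 13.6% in UC. Such cells were 96.5% of the class. Defb33 was at nearly the same shares in all Sertoli-like cells: 18.5% in all, 5.71% in T, 20.2% in R and 13.3% in UC. These values therefore give no measure of co-detection beyond the share of Defb33.

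**Figure D3:**
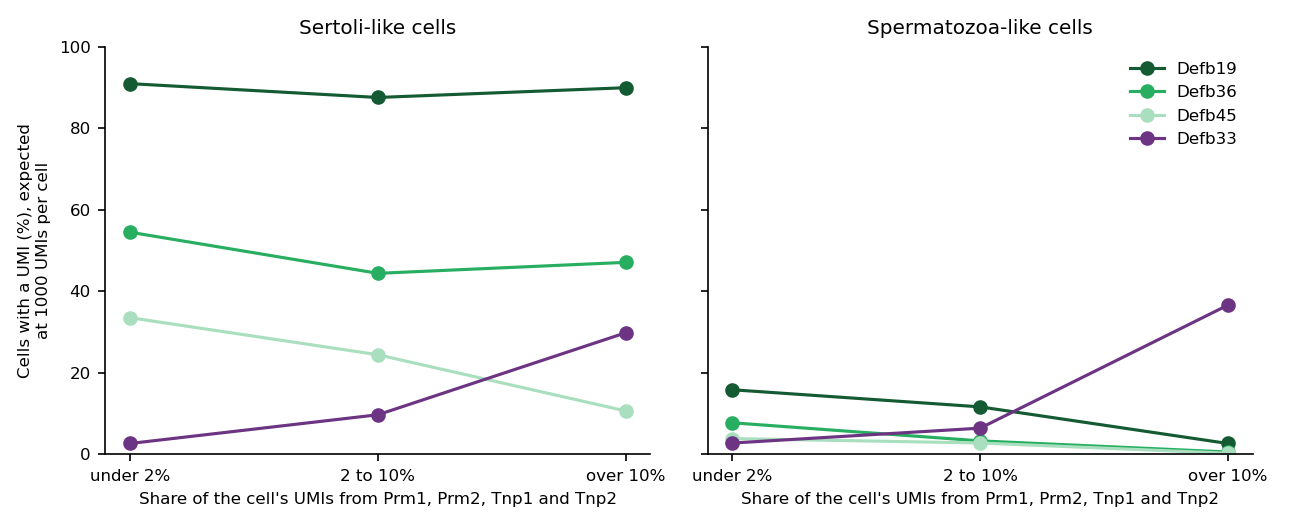
Share of cells with a UMI of each member, thinned to 1000 UMIs per cell, in Sertoli-like (left) and spermatozoa-like (right) cells, by the share of the cell's UMIs from Prm1, Prm2, Tnp1 and Tnp2; lines join the 3 ranges. In Sertoli-like cells Defb33 goes from 2.61 to 29.8%, and Defb19 is between 87.6 and 91.0%, near the ceiling of a share.

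The ratio of Defb33 to Prm1, a protamine transcript of late spermatids, lay between 6.04 and 7.68 per 1000 in 6 classes and was lower in the other 2. There were 6.90 UMIs of Defb33 per 1000 of Prm1 in Sertoli-like cells, 7.06 in spermatozoa-like, 7.68 in spermatid-like, 6.42 in Leydig-like, 6.26 in spermatogonia-like and 6.04 in spermatocyte-like cells, and 7.09 over all cells. Macrophage-like cells had 5.36, from 39 UMIs of Defb33, and myoid-like cells 2.72, from 5 UMIs. The Clu-led and Aard-led cells had 6.32 and 7.00. The part played by RNA released from haploid cells, and by haploid cells in the same droplet or engulfed by Sertoli cells, was not tested.

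In the opposite direction, germ cells carried the Sertoli defensins together with Sertoli markers. Leydig-like cells also had Clu, at 1168 CPM, so ratios to the 7 markers are given without it and with it. Per 100 UMIs of 6 Sertoli markers (Cst9, Rhox8, Sox9, Amhr2, Aard and Wt1), Defb19 had 137 UMIs in Sertoli-like cells and 148 in spermatogonia-like, 158 in spermatocyte-like, 148 in spermatid-like and 181 in spermatozoa-like cells. With Clu among the markers the values were 95.6 in Sertoli-like cells and 106, 117, 121 and 152 in the germ cell classes in the same order, so they rose further from the Sertoli-like value. Defb36 per 100 UMIs of Defb19 was 17.3 in Sertoli-like cells and 18.8, 14.8, 20.9 and 21.0 in those 4 classes. 

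Leydig-like cells, the steroid-producing cells between the tubules, broke the second pattern. Defb19 was there without its neighbours: 1.07 UMIs of Defb36 and 0.279 of Defb45 per 100 of Defb19, and 948 UMIs of Defb19 per 100 of the 6 Sertoli markers, or 102 with Clu as the 7th. By library, Defb19 in Leydig-like cells was 1372 and 1206 CPM in T, 2232 and 1432 in VC-T, 1607, 1363 and 1231 in R, 1873 in VC-R 1, and 394 and 1286 in UC. Defb36 in the same libraries was 0 in 4 of 10 and at most 33.5 CPM. Defb19 was thus well above Defb36 in all 10 libraries, and UC 1 stood lowest.

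The Leydig-like cells richest in steroidogenic markers had the most Defb19. Of 5 sub-clusters, that with 31940 CPM of 5 Leydig markers (Cyp17a1, Hsd3b1, Star, Insl3 and Cyp11a1 together) had 1868 CPM of Defb19 and 0 of Defb36 in 89 cells, and 98.9% of its cells had a UMI. The sub-cluster of 65 cells with 30356 CPM of the markers had 1556 CPM of Defb19 and 11.8 of Defb36. The 72 cells with only 2246 CPM of the markers had 198 CPM of Defb19 and 46.1 of Defb36. Clu, the 7th Sertoli marker, was at 1616, 1463 and 217 CPM in the same sub-clusters, while the 6 other markers were at 146, 160 and 125 in sum. Leydig markers summed to at most 49.8 CPM in the Sertoli-like cells of any library.

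**Figure D4:**
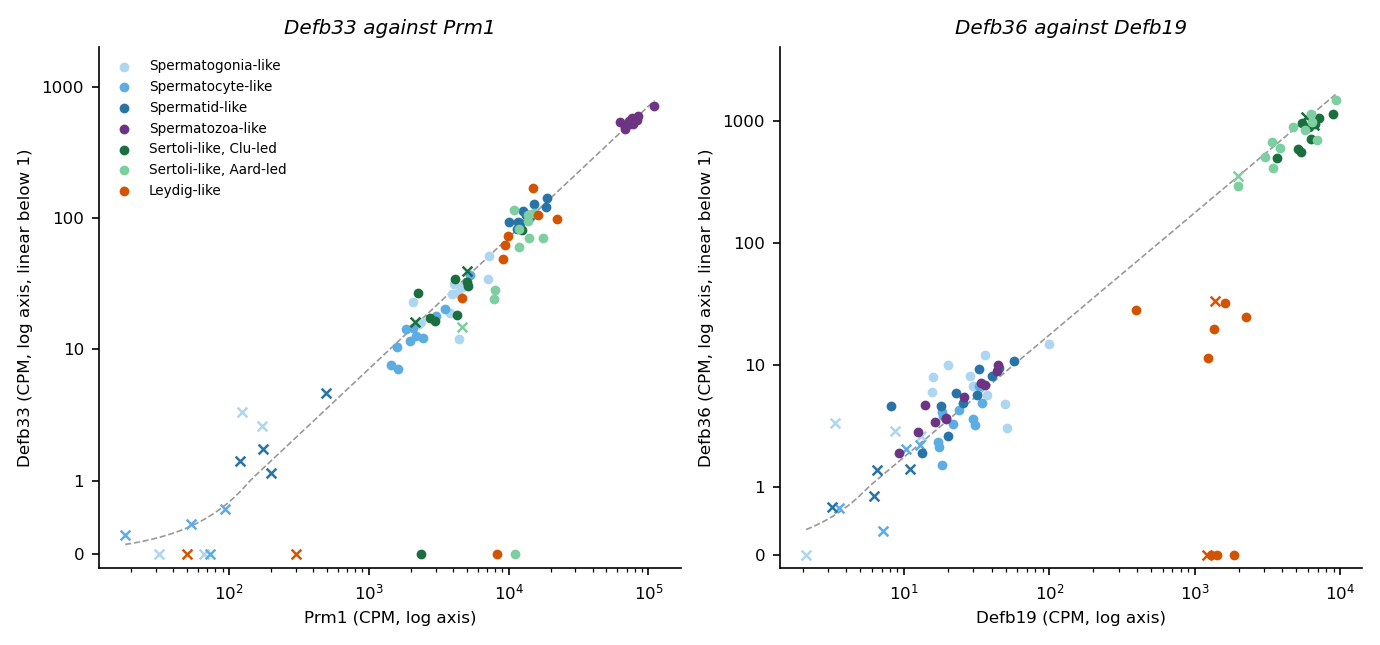
Defb33 against Prm1 (left) and Defb36 against Defb19 (right), 1 point per library and cell class, CPM on log axes (vertical axes linear below 1); crosses are T libraries and VC-T 1, and the dashed line is the ratio over all cells (7.09 per 1000 and 17.6 per 100). Points of Defb33 in the classes shown scatter around the line (myoid-like and macrophage-like cells are not plotted), whereas the Leydig-like points on the right lie far below it.

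Among haploid cells, Defb33 was highest in some of the late clusters and low in others. The 3 early spermatid-like clusters had 7.94 to 9.14 CPM, with sperm transcripts at 0.354 to 0.505% of UMIs. Of the later spermatid-like clusters, the one with the most cells of T, 240, had 87.8 CPM at 4.09% sperm transcripts, and a cluster at 13.4% had 351 CPM. The highest levels were 687 and 662 CPM in the pair of spermatozoa-like clusters with 27.1 and 24.4% sperm transcripts. Spermatozoa-like clusters of 2476, 384, 3855 and 1307 cells had 521, 447, 372 and 60.7 CPM, at 19.7, 20.5, 19.8 and 4.63% sperm transcripts. A spermatozoa-like cluster of 3508 cells with 16.5% sperm transcripts had only 62.6 CPM of Defb33, so within haploid cells the gene did not simply track the protamines. Defb19 in the same clusters lay between 13.1 and 31.3 CPM, apart from 5 clusters with 57.7 to 207 CPM, of which 4 had the fewest UMIs per cell of haploid clusters with over 2% sperm transcripts (medians of 1541.0 to 1757.0).

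JQ1 at the end of dosing did not give a call for any member in Sertoli-like cells against UC. Defb19 was 3745 and 5642 CPM in T 1 and T 3, against 3177, 5507 and 5221 in UC 1 to 3. T 2 had 8 Sertoli-like cells and no value. The ranges of the groups overlapped for Defb19, with a log2 fold change of -0.18 (SE 0.374). Defb36 was 682 and 691 CPM in T and 456, 741 and 900 in UC, again overlapping, with a log2 fold change of -0.24 (SE 0.375). Defb45 was 135 and 198 CPM in T and 212, 279 and 257 in UC, so all T values lay below all UC values, but the log2 fold change of -0.82 (SE 0.432) had an adjusted p of 0.883 in edgeR's quasi-likelihood test with Benjamini-Hochberg adjustment over all genes. Defb33 was 22.5 and 42.3 CPM in T and 179, 36.7 and 89.7 in UC, with a log2 fold change of -1.77 (SE 0.825) and adjusted p of 0.769. Genes were called where the adjusted p was below 0.05 and the log2 fold change was beyond 1 in either direction. By this rule 0 of the 4 members and 0% of 3542 genes tested were called, with 232 genes at an unadjusted p under 0.05 and 30 genes called by DESeq2. None of the 7 Sertoli markers or the 8 host-defence genes tested was called either.

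Against vehicle at the same time, Defb45 was lower in the Sertoli-like cells of T. Its levels were 135 and 198 CPM in T and 313 and 530 CPM in VC-T 2 and VC-T 3, with no overlap. The log2 fold change was -1.54 (SE 0.384, adjusted p = 0.0466, edgeR), and 1 of 4 members was lower where 0.641% of 5460 genes were. The call was lost without T 1 (-1.39, adjusted p = 0.129), without VC-T 2 (-1.87, adjusted p = 0.255) and without VC-T 3 (-1.14, adjusted p = 1.00), so it rests on few libraries. It was kept in the cells with under 2% sperm transcripts (-1.47, adjusted p = 0.00736). Defb19 was 6067 and 7818 CPM in VC-T against 3745 and 5642 in T, with a log2 fold change of -0.75 (SE 0.298, adjusted p = 0.330), which became -1.10 (adjusted p = 0.000453) without T 3, when T 1 stood alone and its spread was taken from the other libraries. Defb33 was also called where doublets were kept (-1.99, adjusted p = 0.0334). Defb36 had -0.72 (SE 0.294, adjusted p = 0.340), with 1007 and 1009 CPM in VC-T.

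The makeup of the Sertoli-like class differed between the libraries of these groups. Of Sertoli-like cells, 24 of 58 were Clu-led in T 1 and 32 of 39 in T 3, against 46 of 338 in VC-T 2 and 77 of 133 in VC-T 3. The shares of the groups thus overlapped. Aard-led cells numbered 32 and 7 in T 1 and T 3, and 276 and 38 in VC-T 2 and VC-T 3. In Clu-led cells alone, Defb19 was 5804 and 6573 CPM in T against 6076 and 8911 in VC-T, and Defb36 was 1070 and 925 against 893 and 1138, both overlapping. Defb45 in Clu-led cells was 178 and 236 CPM in T and 246 and 665 in VC-T, with a log2 fold change of -1.14 (SE 0.497, adjusted p = 0.760). Of the T libraries, T 1 alone had enough Aard-led cells for a value, with 1974 CPM of Defb19 and 103 of Defb45. All 4 sperm transcripts were lower in Sertoli-like cells of T than of VC-T, Prm1 by a log2 fold change of -2.13 (SE 0.316, adjusted p = 0.000347), and none of the 7 Sertoli markers was called.

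**Figure D5:**
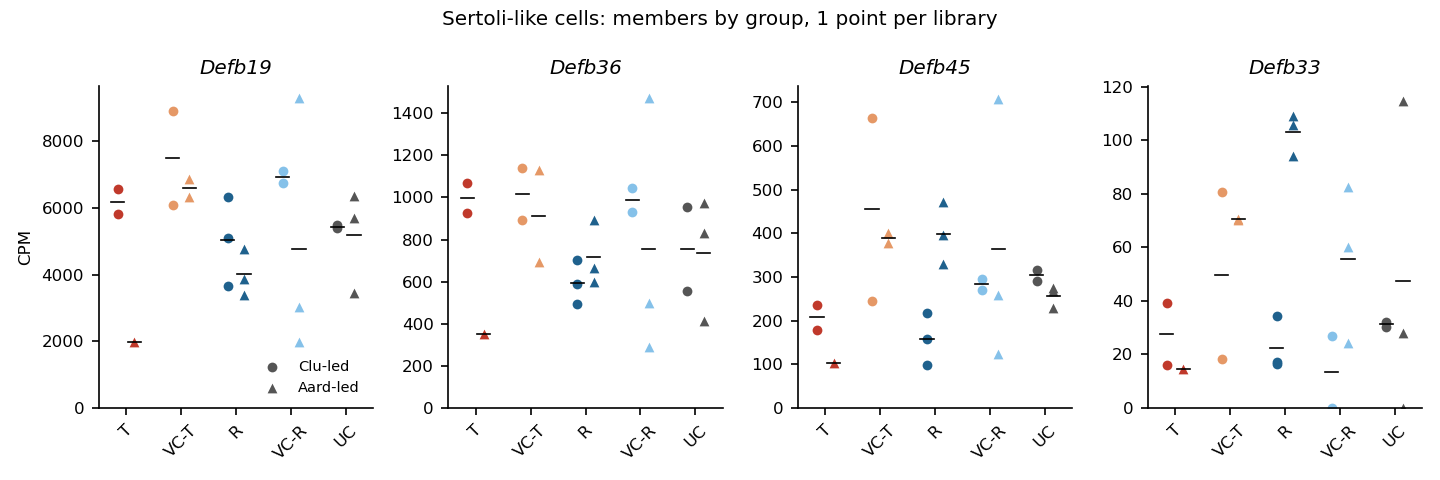
CPM of each member in Clu-led (circles) and Aard-led (triangles) Sertoli-like cells by group, 1 point per library with at least 10 cells and a line at the mean. Defb19 and Defb36 overlap between T and UC in Clu-led cells, and Defb33 in the Aard-led cells of R lies between 94.2 and 109 CPM.

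After 6 wk of recovery the Sertoli defensins were again without a call in Sertoli-like cells, and Defb33 was higher than in UC. Defb19 was 4245, 3560 and 3208 CPM in R 1 to 3 and 3177, 5507 and 5221 in UC, with a log2 fold change of -0.25 (SE 0.265). Defb36 was 763, 576 and 631 CPM in R, within the UC range of 456 to 900. Defb45 was 342, 292 and 281 CPM in R, above the 212 to 279 of UC, with a log2 fold change of 0.34 (SE 0.213, adjusted p = 0.211). Defb33 was 198, 163 and 171 CPM in R and 179, 36.7 and 89.7 in UC. UC 1 lay among the R values and the other 2 below them. The log2 fold change was 1.10 (SE 0.317, adjusted p = 0.0144, edgeR), and 1 of 4 members was higher where 9.28% of 7941 genes were. Genes called in either direction numbered 2206, and 257 without UC 3.

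That call for Defb33 depended on single UC libraries and came with a different mix of cells. It was lost with the replicate numbers as a block, where 610 genes were called, and also without UC 2 (0.81, adjusted p = 0.0784), without UC 3 (1.24, adjusted p = 0.105) and in the Aard-led cells alone (1.36, adjusted p = 0.287). Aard-led cells were 2552 of the 2814 Sertoli-like cells of R and 87 of 181 in UC. Called lower in the same comparison were 4 of 7 Sertoli markers, where 18.5% of genes were: the transcription factors Sox9 (-1.62) and Wt1, the anti-Müllerian hormone receptor Amhr2 (-1.61) and Clu (-1.94). None of the 4 sperm transcripts was called, with a median log2 fold change of 0.65 over the 4 against -0.01 over all genes. Against VC-R, 0 of 4 members and 0% of 7350 genes were called, with 1923 at an unadjusted p under 0.05 and 480 called by DESeq2. Defb33 there had a log2 fold change of 0.88 (SE 0.458, adjusted p = 0.241), with 195, 57.4 and 76.0 CPM in VC-R. Without VC-R 1, the highest of these, it was called at 1.84 (adjusted p = 8.36e-06), as were 3969 genes in all.

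In spermatid-like cells, Defb33 fell by more than any other member under JQ1. T had 4.68, 1.42 and 1.76 CPM, and UC had 91.2, 114 and 93.4. The groups were far from overlapping, and the log2 fold change was -5.28 (SE 0.238, adjusted p = 1.09e-09). The share of spermatid-like cells with a UMI of Defb33 was 1.02% in T (0.737 to 1.37%) and 24.8% in UC (23.0 to 26.7%), at medians of 3019.0 and 4675.0 UMIs, or 0.296 and 7.63% thinned to 1000 UMIs. These intervals cover counting error over the pooled cells of a group and not the spread between mice, which the library levels show. VC-T 2 and VC-T 3 had 141 and 120 CPM, whereas VC-T 1 had 1.15, as low as T. Against VC-T 2 and VC-T 3 the log2 fold change was -5.73 (SE 0.280, adjusted p = 1.22e-06).

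The spermatid-like cells of T were earlier cells, and the fall of Defb33 was smaller within stages. The 3 early clusters held 3737 of the 4229 spermatid-like cells in T and 1042 of 2144 in UC. Within them Defb33 was 0.904, 0.564 and 1.13 CPM in T and 12.9, 7.73 and 12.4 in UC. In the later cluster with the most T cells, it was 34.9, 20.1 and 26.0 CPM in T and 75.0, 94.1 and 100 in UC, again without overlap, with a log2 fold change of -1.65 (SE 0.248, adjusted p = 4.17e-09). The sperm transcripts fell with it over all spermatid-like cells, with log2 fold changes of -5.71 for Prm1 and -3.62 for Tnp1. In the early clusters, where most cells make little of either, how much of the Defb33 came as RNA from other cells was not tested.

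The Sertoli defensins were low in spermatid-like cells, and fell there too in T. Defb19 was 6.51, 3.19 and 10.9 CPM in T and 20.1, 18.0 and 25.4 in UC, without overlap (log2 fold change -2.04, SE 0.270, adjusted p = 2.03e-05). Defb36 was 1.37, 0.708 and 1.41 CPM in T and 2.63, 4.57 and 4.91 in UC (-2.10, SE 0.363, adjusted p = 0.000237). Defb45 did not pass the filter on low counts. So 3 of the 3 members tested were lower where 14.8% of 13186 genes were. Against VC-T, 4 of 4 were lower where 17.9% of 14186 genes were, with log2 fold changes of -2.46 for Defb19, -3.04 for Defb36 and -2.86 for Defb45. With all 3 VC-T libraries in the fit, 0 genes were called. The 7 Sertoli markers summed to 3.01 to 7.99 CPM in the spermatid-like cells of T and 14.5 to 21.1 in UC, and of the 4 markers tested 3 were lower in T (Rhox8 -2.29, Amhr2 -3.49 and Aard -1.64). Whether the fall of Defb19 and Defb36 goes with less Sertoli RNA in these suspensions was not tested.

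In R, Defb19, Defb36 and Defb45 were higher in spermatid-like cells, which in R came mostly from other clusters. The 3 spermatid-like clusters with the lowest median UMIs per cell (1541.0 to 1663.5) held 5172 of 7160 spermatid-like cells in R, 273 of 2144 in UC and 274 of 2153 in VC-R. Over these clusters Defb19 was at 86.1, Defb36 at 18.4 and Defb45 at 8.86 CPM, against 17.8, 3.65 and 1.70 in the other spermatid-like cells. Over all spermatid-like cells, Defb45 was 4.60, 5.50 and 5.16 CPM in R and 0.659, 1.02 and 2.18 in UC (log2 fold change 1.63, SE 0.334, adjusted p = 0.000177), and 1 of 4 members was higher where 7.19% of 14708 genes were. Defb19 was 45.1, 57.4 and 40.1 CPM in R and 20.1, 18.0 and 25.4 in UC, without overlap, and its log2 fold change of 0.94 (SE 0.142, adjusted p = 2.36e-06) lay just under the fold required. Defb36 also had 0.94 (SE 0.235, adjusted p = 0.00155). Both passed it without R 3 (1.08 and 1.09) and without UC 3 (1.09 and 1.08). Against VC-R, 3 of 4 were higher where 6.76% of 14798 genes were: Defb19 by 1.31, Defb36 by 1.15 and Defb45 by 1.79 on the log2 scale. DESeq2 did not call Defb19 (1.23, adjusted p = 0.0664), and without VC-R 2 Defb36 was not called (0.68, adjusted p = 0.0881). Defb33 did not move with them, with 127, 102 and 106 CPM in R, 91.2 to 114 in UC and 82.9 to 106 in VC-R, and log2 fold changes of -0.04 (SE 0.104) and 0.07 (SE 0.108).

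Without those shallow clusters no member was called in spermatid-like cells of R. Against UC the log2 fold changes were 0.56 for Defb19 (adjusted p = 0.0283), 0.41 for Defb36 (adjusted p = 0.428) and 1.08 for Defb45 (adjusted p = 0.125), and 34 genes were called in place of 1071. Defb19 in these remaining cells was 31.2, 31.1 and 24.6 CPM in R and 19.0, 16.6 and 20.6 in UC, still without overlap. Against VC-R they were 0.91 (adjusted p = 0.295), 0.70 (adjusted p = 0.466) and 1.23 (adjusted p = 0.363), with 0 genes called by edgeR, where 1374 had an unadjusted p under 0.05; DESeq2 was not run on these cells. Within the shallow clusters alone, Defb19 was 86.1, 157 and 69.0 CPM in R and 56.3, 82.1 and 126 in UC, which overlapped. The calls over all spermatid-like cells therefore depend on these clusters.

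Spermatozoa-like cells of R were also higher in the 3 genes. Defb19 was 36.3, 43.3 and 33.8 CPM in R and 19.5, 16.3 and 19.4 in UC, Defb36 was 6.88, 8.86 and 7.04 against 3.65, 3.40 and 3.57, and Defb45 was 3.85, 3.68 and 2.65 against 0.858, 0.716 and 0.825. None of these ranges overlapped, and 2 of 4 members were higher where 0.697% of 12053 genes were: Defb36 by 1.03 (SE 0.198, adjusted p = 0.000726) and Defb45 by 1.95 (SE 0.350, adjusted p = 0.000305). The spermatozoa-like cluster with the lowest median UMIs, 1757.0, held 1198 of 9313 such cells in R and 30 of 5536 in UC, and had Defb19 at 207, Defb36 at 49.6 and Defb45 at 32.1 CPM. Without it Defb45 kept its call (2.17, adjusted p = 0.00109), whereas Defb36 was at 0.84 (adjusted p = 0.0137) and Defb19 at 0.79 (adjusted p = 1.31e-05), under the fold required. Without R 2 the change of Defb36 was 0.91 and under the fold required, and without R 3 that of Defb19 was 1.07 and called. DESeq2 gave Defb36 and Defb45 no adjusted p there. The vehicle library VC-R 1 was as high as R, with 44.4 CPM of Defb19 and 9.96 of Defb36, while VC-R 2 and VC-R 3 were at 12.5 and 9.22 CPM of Defb19. Defb33 was 520, 520 and 474 CPM in R and 552, 495 and 538 in UC, a log2 fold change of -0.13 (SE 0.0707, adjusted p = 0.310).

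Of 5 Sertoli markers tested in each of these haploid classes, 2 were called higher in R than in UC and none lower. Called higher in R than in UC were Rhox8, a homeobox gene of Sertoli cells (1.31 in spermatid-like and 1.56 in spermatozoa-like cells on the log2 scale), and Aard (1.29 and 1.18). The other 3 were not called: Cst9 (0.79 and 0.89), Clu (0.71 and 0.0065) and Amhr2 (-0.12 and -0.42). In spermatid-like cells of R the 7 markers summed to 36.5 to 41.6 CPM, above the 14.5 to 21.1 of UC and the 9.71 to 22.4 of VC-R. Their part in the rise of the defensins was not tested. R also held 2814 Sertoli-like cells against 181 in UC and 191 in VC-R.

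Over whole libraries, all cells together, Defb33 was lower in T, and the other 3 were lower in T and higher in R. Fewer cells of a type and less RNA per cell cannot be told apart there. Defb33 was 2.57, 0.716 and 2.50 CPM in T, 254, 255 and 247 in UC and 278, 273 and 247 in R, with VC-T 1 at 0.733. Defb19 was 32.5, 7.22 and 65.0 CPM in T, 54.1, 86.7 and 125 in UC and 178, 183 and 224 in R. The T and UC ranges of Defb19 overlapped, with T 3 above UC 1, while every R library lay above every UC library. In T against UC, 4 of 4 members were lower where 19.5% of 17707 genes were, with log2 fold changes of -7.66 (SE 0.240) for Defb33, -2.04 (SE 0.503) for Defb19, -2.22 (SE 0.447) for Defb36 and -2.43 (SE 0.409) for Defb45. In R against UC, 3 of 4 were higher where 2.72% of 19410 genes were: Defb45 by 1.54 (SE 0.154, adjusted p = 7.02e-05), Defb36 by 1.18 (SE 0.181, adjusted p = 0.000999) and Defb19 by 1.07 (SE 0.182, adjusted p = 0.00203). Without UC 1, Defb19 and Defb36 were at 0.81 and 0.97, under the fold required, and without R 3 Defb19 was at 0.98. Defb33 had a log2 fold change of 0.00 (SE 0.0768).

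Of the other beta-defensins with haploid expression, 2 were called lower under JQ1. In spermatid-like cells Defb21 was lower in T than in UC, with a log2 fold change of -6.24 (SE 0.605, adjusted p = 9.13e-07), and so was Defb30, with -1.92 (SE 0.196, adjusted p = 1.48e-06). Defb30 was at 22.8 CPM ± 8.86 (SD, n = 3) in T and 76.7 ± 8.52 in UC. Defb14, at 61.7 ± 13.3 in T and 79.4 ± 11.5 in UC, had a log2 fold change of -0.59 (SE 0.152, adjusted p = 0.00481), under the fold required. Whether these genes differ from one another was not tested. Of the 38 beta-defensin genes outside the members, 4 were tested there, and 2 of these 4 were lower where 14.8% of 13186 genes were. Neither Defb21 nor Defb30 was called in R against UC.

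A list of 33 host-defence genes, was chosen with earlier results known. It holds WFDC-type protease inhibitors, sperm lysozyme-like genes, defensin receptors and other antimicrobial genes. In spermatid-like cells, 3 of 11 tested were called in T against UC, where 18.4% of all genes were: Eppin, a sperm-coating protease inhibitor, was higher by 1.23, and the iron-binding lipocalin Lcn2 (-2.73) and the chemokine receptor Ccr2 (-1.52) were lower. The median of the 11 was -0.40 against 0.05 over all genes. In Sertoli-like cells of R against UC, 5 of 11 were called where 27.8% of all genes were, the sperm lysozyme-like Lyzl1 (1.12), Lyzl4 (1.08), Lyzl6 (1.60) and Spaca3 (1.24) higher and Wfdc1 lower, with a median of 0.26 against -0.01. Over whole libraries, 4 of 14 were lower in T where 19.5% of all genes were (Wfdc1, Wfdc6a, Wfdc10 and Ccr2), with a median of -0.70 against 0.07. In R against VC-R, Wfdc10 alone of 12 was called in spermatid-like cells, and in R against UC Lcn2 and Wfdc6a were called higher over whole libraries.

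The members were chosen on their Sertoli against late haploid levels, so the split among them in these profiles was set by that choice. Genes whose levels ran closest to each member are described here. Over 26 profiles of cell class and group, Pearson's r of log2 levels was 0.965 between Defb19 and Defb36, 0.938 between Defb19 and Defb45 and 0.983 between Defb36 and Defb45, but 0.274 to 0.298 with Defb33. The genes most like Defb36 of 21942 were Aard (0.993), Tsx, Rhox8, Cst12 and Wfdc10, of which Aard and Rhox8 were Sertoli markers here. Those most like Defb45 were Gm3880 (0.993), 1700018G05Rik, Etd, Wfdc10 and Defb36. Defb19, which is also in Leydig-like cells, was closest to the glutathione transferase gene Gstm7 (0.991), Ldhb, Gstm6, Clu (0.977) and Gm37350. Defb33 was closest to Gm4665 (0.995), Cstl1, 1700015G11Rik, Tex46 and 1700027A15Rik. The profiles share libraries, depth and free RNA, so these values are descriptions only.

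Epididymal epithelium, where many beta-defensins are made, left few transcripts in the suspensions. Its 5 markers (Lcn5, Lcn8, Rnase10, Adam7 and Crisp1) summed to 2.29 to 10.7 CPM over all cells of a library. In spermatozoa-like cells they summed to 0 to 1.47 CPM, with Lcn5, Lcn8 and Adam7 at 0 in every group.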

How the data were processed

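Single-cell RNA of whole dissociated testis was measured in 15 libraries, 3 per group, with groups and replicate numbers taken from the sample labels. The deposited files hold UMI counts without normalization for each gene and barcode, made by the authors with Cell Ranger (3.0.0 in the submitters' processing notes and 7.0.0 in the matrix header) on mm10. Whether intronic reads were counted is not given in the sources used here. The authors' correction for free RNA and doublet removal are not in these counts, and no correction for free RNA was applied here.

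Barcodes were kept with 500 or more genes, 1000 or more UMIs and a mitochondrial share below 30%, and the 5.4% with the highest doublet score per library were removed. Counts were clustered on 2000 variable genes, 30 principal components and 20 neighbours (Leiden, resolution 1.2) with scanpy 1.11.5 in Python 3.11.15, and clusters were named by fixed markers. A class name needed 3 detected markers, and mixed clusters stayed unnamed. Marker names rest on transcripts, so classes may differ from those of the study. UMIs were summed per library and class with at least 10 cells, and tested with edgeR 4.0.16 (quasi-likelihood, TMM, its filter on low counts) in R 4.3.3 with Benjamini-Hochberg adjustment over all genes; DESeq2 1.42.0 was an alternative. The fits were tested on simulated data. Thinned shares are those expected when 1000 UMIs are drawn from each cell. Every member, every other beta-defensin reaching 5 CPM in a class, and the called genes of the host-defence list are named. The members and lists were chosen with earlier results of these data known. Settings for single clusters were chosen after seeing the data; early spermatid-like clusters are those with under 1% sperm transcripts, and shallow haploid clusters are the 4 with the lowest median UMIs per cell. Libraries of a group came from separate mice. Loci and coding sequences are from GENCODE vM21, with all 4 members matched. The coding sequence of Defb45 is not reported here.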

Additional observations from a re-analysis of the deposited data

Results flagged for a closer look

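In spermatid-like cells taken as 1 class, the contrast of JQ1 with same-time vehicle differed between the end of dosing and 6 wk later for all 4 members. This was tested by edgeR as the difference of the 2 contrasts, (T minus VC-T) minus (R minus VC-R), over 11 libraries without VC-T 1. The difference was -5.74 on the log2 scale for Defb33 (SE 0.279, adjusted p = 2.42e-11), -3.73 for Defb19 (SE 0.474, adjusted p = 3.64e-06), -4.13 for Defb36 (SE 0.482, adjusted p = 1.25e-06) and -4.59 for Defb45 (SE 0.549, adjusted p = 1.69e-06). In the same test 7486 of 15402 genes had an adjusted p under 0.05. For Defb33 nearly all of the difference lay at the end of dosing, whereas Defb19, Defb36 and Defb45 were also higher in R than in VC-R, a rise that gave no call without the spermatid-like clusters of lowest depth. The difference itself was not run without those clusters, nor within stages. Early clusters held 3737 of 4229 spermatid-like cells in T, and 195 of 1027 and 356 of 757 in VC-T 2 and VC-T 3. Makeup by stage and level within a stage therefore cannot be told apart in this difference. In Sertoli-like cells 0 of 7345 genes passed, and the differences were -3.05 for Defb33 (SE 0.790, adjusted p = 0.304), -1.86 for Defb45 (SE 0.651, adjusted p = 0.304), -0.71 for Defb36 (SE 0.517, adjusted p = 0.553) and -0.46 for Defb19 (SE 0.475, adjusted p = 0.686).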

How the results depend on the processing

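Of 508 member values under other settings, 435 kept their direction and their side of the threshold, 24 lost a call, 15 gained one and 34 turned direction. None of the 34 was of a called value. The number of members called in Sertoli-like cells of R against UC was 1, and it was 0 with the replicate block, in the Aard-led cells alone (Defb33 1.36), and in the Clu-led cells or the cells with under 2% sperm transcripts, where Defb33 was not tested. In spermatid-like cells of R against UC it was 1, 3 without doublet removal or with classes from marker UMIs alone, and 0 without the shallow haploid clusters (34 genes called), as in R against VC-R, where it was 3 (0 genes called). In spermatozoa-like cells of R against UC it was 2, 1 without the shallow haploid cluster, and 0 by DESeq2, which gave 2 members no adjusted p. In spermatid-like cells of T against VC-T it was 4, and 2 of 2 tested in the early clusters or the later cluster with most T cells alone, and 0 with all 3 VC-T libraries. In Sertoli-like cells of T against VC-T it was 1, and 2 without doublet removal, and 0 with classes from marker UMIs alone, without a minimum of cells or in the Clu-led cells alone. Leaving out each replicate in turn gave 0 to 1 in Sertoli-like cells of R against UC and of R against VC-R, 0 to 2 in those of T against VC-T, and 1 to 3 in spermatid-like cells, spermatozoa-like cells and whole libraries of R against UC. Classes from marker UMIs alone moved levels in spermatid-like cells to 39.2 CPM for Defb19 and 3.79 for Defb45, and in spermatozoa-like cells to 97.5 for Defb19, 27.6 for Defb36, 4.83 for Defb45 and 415 for Defb33; the cause was not tested. Uncalled directions that turned were as follows. In Sertoli-like cells of T against UC, Defb19 was 0.17 and Defb36 0.21 with marker classes and 0.17 and 0.31 in Clu-led cells, and leaving out replicates gave -0.52 to 0.0565 and -0.33 to 0.0529. In those of R against UC, Defb19 without the filter was 0.18, Defb36 was 0.0288 by DESeq2, 0.36 without the filter, 0.00690 with the replicate block, 0.0425 without doublet removal, 0.0653 with marker classes and 0.0272 under 2% sperm transcripts, and -0.10 to 0.23 over left-out replicates, and Defb45 in Clu-led cells was -0.80. In those of R against VC-R, Defb36 without the filter was 0.23, Defb45 was -0.73 in Clu-led and -0.0481 in Aard-led cells, and leaving out replicates gave -0.55 to 0.0153 for Defb19, -0.26 to 0.40 for Defb36 and -0.00837 to 0.94 for Defb45. Defb33 in spermatid-like cells of R against UC was 0.190 without the shallow clusters. It was -0.14 to 0.0851 against UC and -0.0241 to 0.13 against VC-R over left-out replicates and -0.0340 with marker classes against VC-R, and in whole libraries of R against UC -0.0162 by DESeq2 and -0.0458 to 0.0769. Same-numbered replicates deviated together in part: 9 of 29 pairs had a correlation of deviations over 0.1 (range -0.32 to 0.51). No comparison with 3 pairs had every pair over 0.1. Sertoli-like cells of T against UC had pairs for replicates 1 and 3 alone, at 0.513 and 0.509. Those of T against VC-T had a pair for replicate 3 alone, at 0.288. In both, every pair available was thus over 0.1. Where a group has 2 libraries, their deviations from its mean mirror each other. The pairs of these comparisons are therefore not independent and cannot decide whether replicates are paired. With the block, the genes called in Sertoli-like cells went from 0 to 107 in T against UC and from 2206 to 610 in R against UC. No fit with the block was possible in Sertoli-like cells of T against VC-T, where the libraries share replicate number 3 alone. Other counts of genes called that differed between tools were 0 and 30 (DESeq2) in T against UC, 46 and 30 in T against VC-T and 0 and 480 in R against VC-R for Sertoli-like cells, 1071 and 680 in R against UC and 1007 and 547 in R against VC-R for spermatid-like cells, and 88 and 11 in R against UC for spermatozoa-like cells. Without the filter on low counts, genes called in Sertoli-like cells were 17 in T against UC, 3322 in R against UC and 1440 in R against VC-R. At 4009 UMIs in all, Defb45 limits what could be tested outside Sertoli-like cells.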
